A study of Mus musculus with 6 samples.

Results

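Autophagy delivers worn or surplus parts of a cell to the lysosome, the acidic compartment whose hydrolases take them apart, and in liver it is known as a source of amino acids and lipids during a fast. A double membrane grows around the cargo under the control of a kinase complex and a lipid kinase complex, is coated with small ubiquitin-like proteins of the ATG8 family, closes into an autophagosome and fuses with a lysosome. The transcription factors TFEB and TFE3 activate many genes of both compartments when nutrients are short. The set described here holds 41 genes of these steps, listed by symbol. The array annotation assigns a probe set of their own to 18193 genes, 40 of the 41 among them. The 41 genes comprise 25 autophagosome genes, 14 lysosome genes and the 2 transcription factors. Each gene was read by 1 probe set (a group of short probes for 1 transcript), the one with the highest mean over the 6 arrays. This gave values for 40 genes. The exception was Bnip3l, a receptor for mitochondria, whose 3 probe sets are assigned to Bnip3l and to its pseudogene together.

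Liver RNA came from 3 Ghrh-KO mice and 3 littermate controls (wild-type), all male and of mixed C57BL6 and 129SV strain, 10 months old according to the methods and killed after a fast of 6 to 8 h. Ghrh encodes the hypothalamic hormone that releases growth hormone, and its disruption in every cell leaves the mice short of growth hormone throughout life. Each array holds a separate animal, and the values are log2 intensities summarised by RMA (robust multichip average). Differences are Ghrh-KO minus control, each with its standard error (SE) from limma, and adjusted p is the Benjamini-Hochberg value from limma over 25000 probe sets. A gene was called, and is said to have risen or fallen, at adjusted p below 0.05 with a fold change above 1.5 or below 0.67.

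Igf1, the main hepatic target of growth hormone, read 6.72, 6.79 and 6.92 in Ghrh-KO livers, against 12.16, 12.52 and 12.49 in control livers (log2). Ghrh itself read 4.40 to 4.75 over the 6 arrays, and its highest value was taken as the upper bound of background. Hepatocyte markers were high and close together, with a mean over 10 genes of 13.56 to 13.72 in Ghrh-KO and of 13.63 to 13.68 in control arrays. A mean over 16 markers of Kupffer cells and other macrophages ran from 7.46 to 8.72 in Ghrh-KO arrays and from 7.40 to 8.69 in control arrays. It was high in Ghrh-KO replicate 4 and control replicate 1. Other marker lists were also followed. All 8 markers of stellate cells and fibroblasts had higher means in Ghrh-KO liver, and none was called. Of these, Pdgfrb (0.90, adjusted p = 0.0885 from limma) and Col3a1 (1.16, adjusted p = 0.199) had an unadjusted p below 0.05. Of 10 lymphocyte markers 3 were tested, with differences of 0.92 (Ptprc), 0.17 (Cd3e) and 0.07 (Cd4), none called. Of 8 neutrophil markers 2 were tested, S100a8 and S100a9. Their control means (4.36 and 4.74) lay under the highest Ghrh value (4.75), that of S100a9 only just, so their differences are not read here. Of 6 erythroid markers only Alas2 was tested, and it fell by 1.36 (adjusted p = 0.0221 from limma). Of 8 endothelial markers tested, 6 had higher and 2 lower means. Of 3 cholangiocyte markers tested, 1 had a higher and 2 lower means, among them Sox9 (-0.54, adjusted p = 0.139). None of the endothelial and cholangiocyte markers was called. The part of these cells in the values below was not tested. In bulk tissue, fewer cells of a type and less RNA per cell cannot be told apart. Ghrh-KO replicate 5 stood apart in RNA quality. The probe set at the 3′ end of Gapdh read 5.27 above the one at its 5′ end in that array (log2), compared with 0.15 and 0.28 in the other Ghrh-KO arrays and 0.18 to 0.67 in the controls. Its share of the probe sets tested that lay more than 1 below the mean of the other Ghrh-KO arrays was 3.33%, and for probe sets of the described genes 5 of 82. Differences of the described genes that changed sign or moved by more than 1.5 times without this array are therefore also given without it.

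Among the transcripts of the autophagosome and the lysosome, 1 was called between Ghrh-KO and control liver. Atp6v0d2, a subunit of the proton pump that acidifies the lysosome, rose 5.99-fold. Ctss and Hexa, with 2.29-fold and 1.62-fold higher means, were not called. None of the 24 autophagosome genes and neither transcription factor was called in either direction. Over all genes tested 1.76% were called, 0.79% higher and 0.967% lower, so that 1 call among 40 genes is close to the background. At an unadjusted p below 0.05 there were 9 genes, 6 higher (Ulk1, Pik3c3, Atg10, Ctss, Hexa and Atp6v0d2) and 3 lower (Wipi1, Atg4b and Atg7), where 19.3% of all genes tested reached that level, 9.17% higher and 10.1% lower. Without Ghrh-KO replicate 5, 0 autophagosome genes were higher and 3 lower at that level, against 3 and 3 with it. Loss of control replicate 1, 2 or 3 left 0, 0 and 1 higher and 3, 5 and 3 lower. Loss of Ghrh-KO replicate 4 or 6 left 2 and 2 higher and 5 and 3 lower, so these counts moved with arrays of both genotypes. In 15 of the 40 genes the 2 genotypes did not overlap, a separation found in 28.5% of all genes tested. For 37 genes the difference was smaller than 1.5-fold in either direction.

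The autophagosome genes had a median difference of -0.17 on the log2 scale, with 9 of 24 above 0 and 15 below. The lysosome genes had a median of 0.07, with 8 of 14 above 0 and 6 below. The median over all 12410 genes tested was close to 0 (0.00302). Without Ghrh-KO replicate 5 the autophagosome median shrank to -0.05, and without control replicate 2 the lysosome median was -0.00162, so both medians moved with the loss of 1 array.

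**Figure D1:**
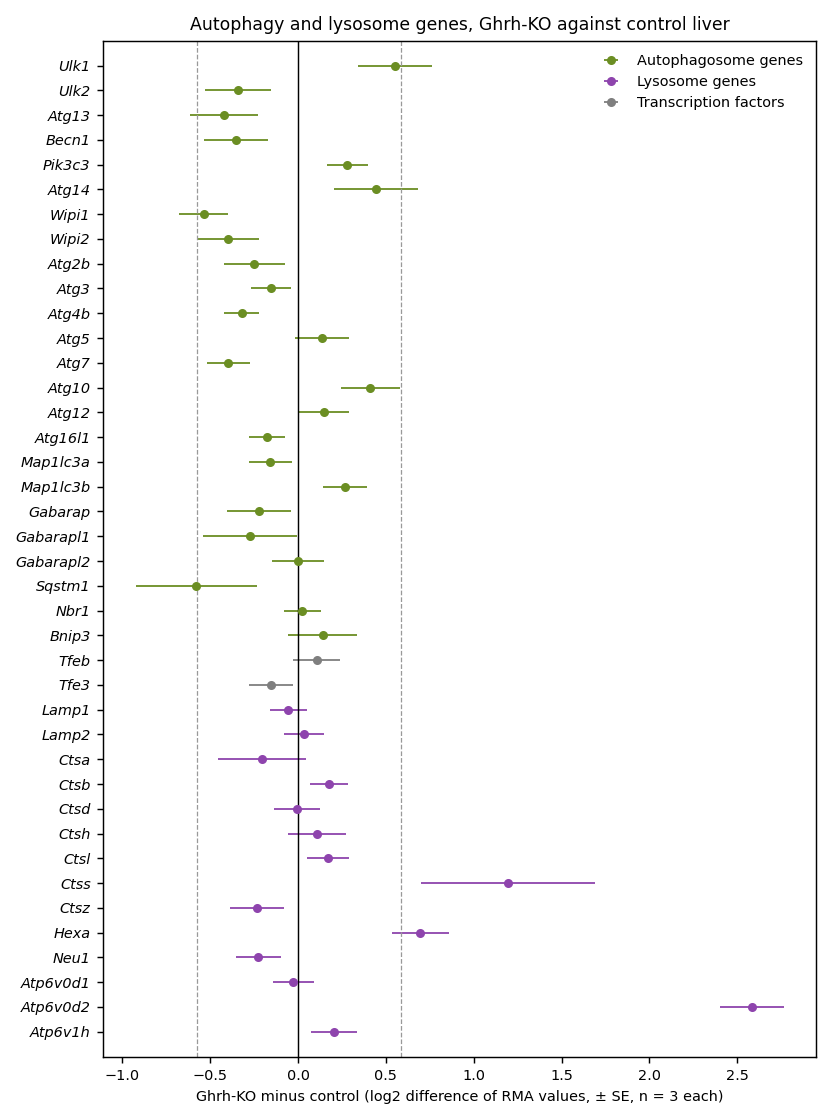
Difference between Ghrh-KO and control liver for the 40 genes with values, in log2 units of RMA values with SE bars (n = 3 arrays per genotype), in green for autophagosome genes, purple for lysosome genes and grey for transcription factors; dashed lines mark the fold change limits of 1.5 and 0.67. Atp6v0d2 lies far to the right at 2.58, Ctss and Hexa lie beyond the upper limit, and among the autophagosome genes Sqstm1 sits on the lower one.

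**Figure D2:**
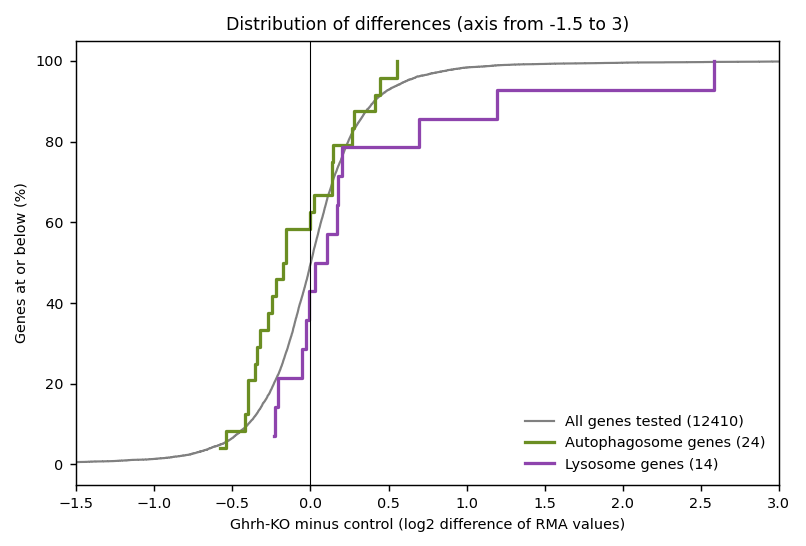
Cumulative share of genes (percent, vertical axis) at or below a given difference between Ghrh-KO and control liver (log2, horizontal axis, drawn from -1.5 to 3) for all 12410 genes tested, 24 autophagosome genes and 14 lysosome genes. The autophagosome curve runs to the left of all genes around 0 (median -0.17), and the lysosome curve has a long right end formed by Hexa, Ctss and Atp6v0d2.

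TFEB and TFE3 recognise an E-box whose core lies within the CLEAR element of lysosomal promoters. The 7 letters TCACGTG were searched on both strands in the promoter windows of RefSeq (GRCm38.p6, 250 bases before to 50 after the start of the gene), which hold 31 of the 41 genes. Those without an entry were Pik3c3, Becn1, Atg12, Atg16l1, Map1lc3a, Bnip3l, Ctsb, Ctsh, Atp6v0d2 and Atp6v1h. The motif occurred in 7 of the 31 genes, compared with 4.29% of all genes in the table (3.77% of promoters). It was present in 4 of 10 lysosome genes and 3 of 19 autophagosome genes. The forkhead motif TGTTTAC, which FOXO factors bind, was found in 0 of the 31 genes and in 4.05% of all genes. A match of letters is a description and does not show binding. The 7 promoter stretches with the E-box are shown, 3 of autophagosome genes and 4 of lysosome genes. They run 5′ to 3′ on the strand of the gene, with each match, on either strand, in capitals; where matches on both strands overlap, they are 1 site of 8 letters.
Atg14, chr14:47568405-47568459, minus strand: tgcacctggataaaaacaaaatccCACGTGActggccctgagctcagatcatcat
Atg3, chr16:45158710-45158788, plus strand: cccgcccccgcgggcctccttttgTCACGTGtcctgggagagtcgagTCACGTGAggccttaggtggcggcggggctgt
Atg7, chr6:114670939-114670993, plus strand: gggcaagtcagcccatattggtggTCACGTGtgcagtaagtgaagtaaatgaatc
Atp6v0d1, chr8:105566037-105566092, minus strand: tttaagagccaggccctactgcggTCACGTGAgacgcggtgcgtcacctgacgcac
Ctsa, chr2:164833736-164833808, plus strand: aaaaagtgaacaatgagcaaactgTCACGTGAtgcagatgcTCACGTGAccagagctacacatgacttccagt
Ctsd, chr7:142387895-142388077, minus strand: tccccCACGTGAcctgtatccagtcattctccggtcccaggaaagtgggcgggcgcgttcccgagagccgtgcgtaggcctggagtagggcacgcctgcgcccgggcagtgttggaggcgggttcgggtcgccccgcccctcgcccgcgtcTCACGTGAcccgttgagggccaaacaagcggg
Lamp1, chr8:13159075-13159175, plus strand: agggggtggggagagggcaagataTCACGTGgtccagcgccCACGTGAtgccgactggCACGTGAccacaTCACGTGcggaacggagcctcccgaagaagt

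Lamp1 held 4 sites, Atg3, Ctsa and Ctsd 2 each, and Atg7, Atg14 and Atp6v0d1 1 each. None of these 7 genes was called, their differences ran from -0.40 (Atg7) to 0.44 (Atg14), and their median was -0.056. The 24 genes with a promoter window but without the motif had a median of -0.078 and ran from -0.58 to 1.19. Tfeb read 6.65, 6.47 and 6.82 in Ghrh-KO livers, against 6.44, 6.54 and 6.64 in control livers, with a difference of 0.10 (SE 0.13, adjusted p = 0.703 from limma) that was 0.19 without Ghrh-KO replicate 5. Tfe3 read 7.62, 7.78 and 7.59 in Ghrh-KO livers, against 7.79, 7.98 and 7.69 in control livers, with a difference of -0.15 (SE 0.13, adjusted p = 0.541). The groups overlapped for both factors.

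Autophagy starts with the ULK kinase complex. ULK1 and ULK2 are its alternative catalytic subunits and ATG13 is the adaptor that TOR phosphorylates. Ulk1 read 9.49, 9.99 and 9.15 in Ghrh-KO livers, against 8.92, 9.08 and 8.96 in control livers. All Ghrh-KO values lay above the controls, with replicate 5 the highest and replicate 6 close to them. The difference of 0.55 (SE 0.21, unadjusted p = 0.0337, adjusted p = 0.235 from limma) was not called, and it was 0.33 without Ghrh-KO replicate 5. A dimmer second probe set of Ulk1 gave -0.17 (SE 0.17, adjusted p = 0.620). Ulk2 and Atg13 pointed downward, with differences of -0.34 and -0.42 that were not called and with groups that overlapped. Without Ghrh-KO replicate 5 the difference of Atg13 was -0.23 (adjusted p = 0.519). Their other tested probe sets also gave negative values, -0.55 (adjusted p = 0.107), -0.38 (adjusted p = 0.295) and -0.06 (adjusted p = 0.902) for Ulk2 and -0.61 (adjusted p = 0.062) for Atg13.

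The lipid kinase VPS34, encoded by Pik3c3, forms a complex with Beclin 1 (Becn1) and ATG14, which places it at the site where the autophagosome forms. Pik3c3 read 6.38, 6.48 and 6.38 in Ghrh-KO livers, against 6.218, 5.983 and 6.201 in control livers, a separation of the groups by a narrow gap (difference 0.28, SE 0.12, unadjusted p = 0.048, adjusted p = 0.272 from limma). Atg14 read 8.79, 8.34 and 7.89 in Ghrh-KO livers, against 7.82, 8.15 and 7.72 in control livers. These groups overlapped, and the difference of 0.44 (SE 0.24, adjusted p = 0.368) was 0.22 without Ghrh-KO replicate 4. Becn1 had a difference of -0.35 (SE 0.18, adjusted p = 0.352), also with overlap, and of -0.20 without Ghrh-KO replicate 5 (adjusted p = 0.617). The complex thus held members on both sides of 0, none of them called.

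WIPI proteins bind the phosphoinositide that this kinase makes, and ATG2 proteins, of which Atg2b encodes one, move lipid into the growing membrane. All 3 members of this step had lower means in Ghrh-KO liver, Wipi2 and Atg2b by less without Ghrh-KO replicate 5. Wipi1 read 7.93, 7.67 and 7.62 in Ghrh-KO livers, against 8.35, 8.38 and 8.11 in control livers. The groups did not overlap, but the difference of -0.54 (SE 0.14, unadjusted p = 0.00554, adjusted p = 0.116 from limma) was not called. Another of its 6 probe sets was called. It read 5.79, 5.09 and 5.56 in Ghrh-KO livers, against 6.86, 6.81 and 6.72 in control livers, and so fell by 1.32 on the log2 scale (SE 0.19, adjusted p = 0.0229). That call was kept without Ghrh-KO replicate 5 (-1.13, adjusted p = 0.0182) or 4 and lost without any one of the other arrays, with differences of -1.29 to -1.36 and adjusted p from 0.0722 to 0.0956. All 5 tested probe sets of Wipi1 gave a negative difference, from -0.10 to -1.32. The probe set with the highest mean carries a suffix that marks probes shared with other transcripts, and the called one does not. Wipi2 read 9.04, 8.50 and 9.03 in Ghrh-KO livers, against 9.30, 9.36 and 9.11 in control livers, again without overlap (difference -0.40, SE 0.18, adjusted p = 0.289). Its difference was -0.22 without Ghrh-KO replicate 5 (adjusted p = 0.480). Atg2b gave -0.25 (SE 0.18, adjusted p = 0.480), which was -0.064 without that array (adjusted p = 0.849), and its second tested probe set -0.68 (SE 0.18, adjusted p = 0.118).

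**Figure D3:**
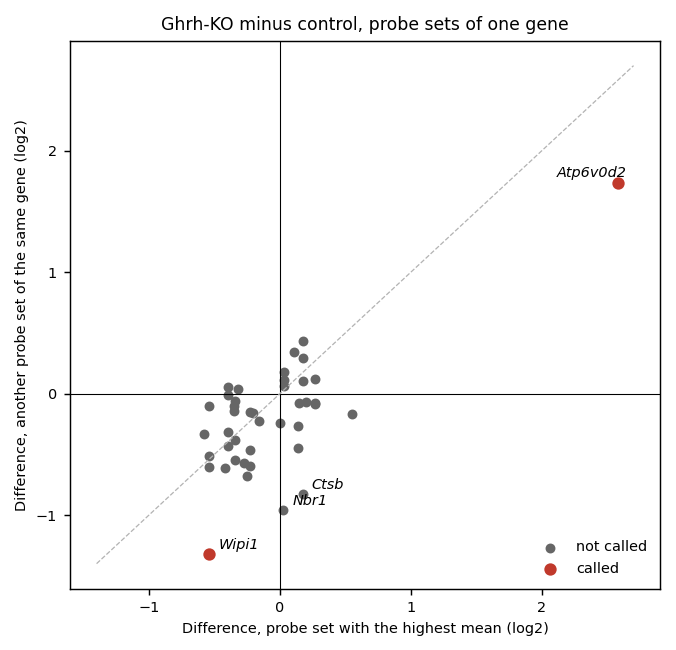
Difference between Ghrh-KO and control liver (log2) for the 42 further tested probe sets of 25 genes (vertical axis) against the difference of the probe set with the highest mean of the same gene (horizontal axis), with called probe sets in red and the dashed line marking equal differences. The called probe set of Wipi1 shares its sign with the one plotted against it. The red point of Atp6v0d2 passed the filter on dim probe sets only through its Ghrh-KO arrays, and its call is not used. Ctsb and Nbr1 each have a probe set that lies far below 0.

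Probe sets of 1 gene did not always share a direction. Among the 42 further tested probe sets of 25 genes, 31 had the same sign as the one with the highest mean and 11 the opposite sign, and 2 were called, those of Atp6v0d2 and Wipi1. The one of Atp6v0d2 passed the filter on dim probe sets only through its Ghrh-KO arrays, so its call is not used. For 15 genes only 1 probe set was tested, so their values have no such check. The main probe sets of Map1lc3a and Gabarapl1, like that of Wipi1, carry a suffix for shared probes. The widest disagreements arose in Ghrh-KO replicate 5. A second probe set of Ctsb read 10.62, 7.08 and 10.74 in Ghrh-KO livers, against 10.69, 9.81 and 10.42 in control livers. A second probe set of Nbr1 read 7.65, 5.64 and 7.40 in Ghrh-KO livers, against 8.03, 7.70 and 7.85 in control livers. In both, replicate 5 was the lowest of the 6 arrays by far, while the main probe sets of these genes showed no such drop. Whether the 3′ to 5′ imbalance of that array has a part in this was not tested.

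A pair of ubiquitin-like conjugation reactions builds the coat. ATG7 is the activating enzyme of both, ATG3 and ATG10 are the conjugating enzymes, ATG12 is joined to ATG5 and works with ATG16L1, and the protease ATG4B trims and recycles the ATG8 proteins. The 7 genes gave no call, with 3 differences above 0 and 4 below. Atg7 read 7.76, 7.87 and 7.82 in Ghrh-KO livers, against 8.21, 8.37 and 8.06 in control livers, and every Ghrh-KO value lay below the controls (difference -0.40, SE 0.12, unadjusted p = 0.0135, adjusted p = 0.164 from limma). Its other tested probe sets gave 0.06 and -0.31 (adjusted p = 0.847 and 0.228). Atg4b read 7.67, 7.67 and 7.68 in Ghrh-KO livers, against 7.99, 8.00 and 7.99 in control livers. The spread within each genotype was below 0.01, yet the moderated SE was 0.10, and the difference of -0.32 was not called (adjusted p = 0.164). A second probe set of Atg4b of like signal gave 0.04 (adjusted p = 0.918). Atg10 pointed upward, with 7.27, 7.62 and 7.40 in Ghrh-KO livers, against 6.85, 6.90 and 7.31 in control livers, where control replicate 3 overlapped the Ghrh-KO range (difference 0.41, SE 0.17, unadjusted p = 0.0422, adjusted p = 0.259). Atg3, Atg5, Atg12 and Atg16l1 differed by -0.18 to 0.15, with adjusted p between 0.405 and 0.659. Without Ghrh-KO replicate 5, Atg5 was at 0.00020, in place of 0.14, and Atg12 at 0.071, in place of 0.15. Of these, Atg16l1 alone had groups that did not overlap, by a narrow margin. Further tested probe sets gave the opposite sign for Atg5, with -0.27 and -0.45 (adjusted p = 0.371 and 0.393 from limma). The same held for Atg12, with -0.08 (adjusted p = 0.815).

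The ATG8 family coats the membrane and binds cargo receptors. It includes the LC3 proteins, from Map1lc3a and Map1lc3b, and the GABARAP proteins. Map1lc3b read 11.25, 11.61 and 11.35 in Ghrh-KO livers, against 11.11, 11.14 and 11.16 in control livers, all higher in Ghrh-KO (difference 0.27, SE 0.13, adjusted p = 0.317 from limma). The difference was 0.17 without Ghrh-KO replicate 5 (adjusted p = 0.550). Its other probe sets gave -0.07, 0.12 and -0.09. Gabarapl1, the family member with the widest difference, read 11.63, 10.95 and 12.06 in Ghrh-KO livers, against 11.78, 11.71 and 11.97 in control livers. Replicate 5 was the lowest array and replicate 6 the highest, and the difference of -0.27 (SE 0.27, adjusted p = 0.616) became 0.025 without Ghrh-KO replicate 5. Gabarap behaved alike, with -0.22 (adjusted p = 0.541) and -0.024 without that array. Map1lc3a gave -0.16 (SE 0.12, adjusted p = 0.520), and Gabarapl2 had equal means of 9.97 in both genotypes, with a difference of -0.040 without Ghrh-KO replicate 5.

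Cargo receptors link ubiquitin or mitochondria to the ATG8 coat. Sqstm1 encodes p62, which is itself degraded by autophagy, so its transcript does not show its protein level. It read 10.94, 9.65 and 11.00 in Ghrh-KO livers, against 11.06, 11.16 and 11.11 in control livers. Every Ghrh-KO value was lower, but replicate 5 lay more than 1 below the other Ghrh-KO arrays, and the difference of -0.58 (SE 0.35, adjusted p = 0.410 from limma) was -0.14 without it (adjusted p = 0.629). Nbr1, a related ubiquitin receptor, differed by 0.02 (SE 0.11, adjusted p = 0.928), and by 0.049 without that array. Bnip3, a receptor on mitochondria that hypoxia and fasting are known to induce, read 11.66, 12.25 and 12.07 in Ghrh-KO livers, against 11.75, 11.66 and 12.14 in control livers, with overlap and a difference of 0.14 (SE 0.20, adjusted p = 0.736). It was 0.012 without Ghrh-KO replicate 5.

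**Figure D4:**
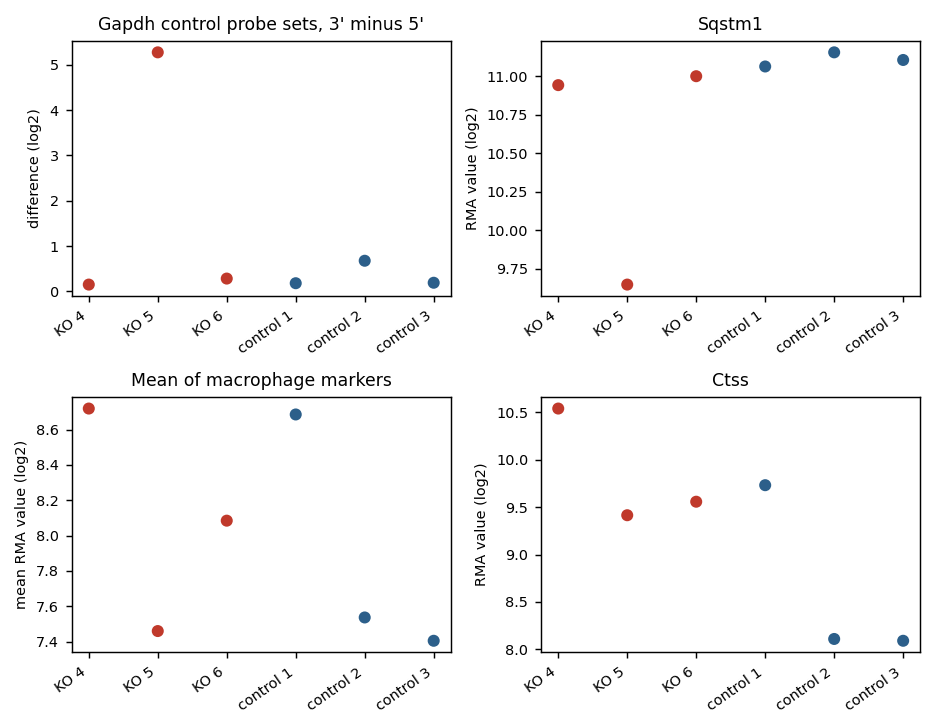
Values in each of the 3 Ghrh-KO arrays (red) and 3 control arrays (blue) on the log2 scale: 3′ minus 5′ signal of the Gapdh control probe sets, Sqstm1, the mean of 16 macrophage markers, and Ctss. Ghrh-KO replicate 5 has the highest Gapdh difference (5.27) and the lowest Sqstm1 value (9.65), and Ghrh-KO replicate 4 and control replicate 1 are the highest arrays for both the macrophage markers and Ctss.

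The lysosome genes include those of the membrane glycoproteins LAMP1 and LAMP2, which line the organelle. Lamp1 read 12.60, 12.69 and 12.72 in Ghrh-KO livers, against 12.69, 12.72 and 12.76 in control livers (difference -0.06, SE 0.10, adjusted p = 0.804 from limma). Lamp2 differed by 0.03 (SE 0.11, adjusted p = 0.905), by 0.0012 without Ghrh-KO replicate 5, and its other probe sets by 0.06 to 0.18. The groups overlapped for both genes.

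Cathepsins are the proteases of the lysosome, and CTSA also protects neuraminidase 1 (Neu1) and beta-galactosidase. None of 7 was called. Ctsl read 13.24, 13.04 and 13.02 in Ghrh-KO livers, against 13.00, 12.83 and 12.96 in control livers (difference 0.17, SE 0.12, adjusted p = 0.475 from limma). Ctsb read 12.46, 12.55 and 12.54 in Ghrh-KO livers, against 12.44, 12.31 and 12.27 in control livers (difference 0.17, SE 0.11, adjusted p = 0.426). For both, the Ghrh-KO arrays were all higher, but the closest pair of arrays nearly touched. Ctsd, Ctsh and Ctsa differed by -0.01, 0.11 and -0.21, and by 0.09, 0.18 and 0.07 without Ghrh-KO replicate 5. Ctsz gave -0.23 (SE 0.15, adjusted p = 0.456), or -0.12 without that array, and its other probe sets, both with a suffix for shared probes, gave -0.60 (adjusted p = 0.134) and -0.47 (adjusted p = 0.156).

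Ctss, a cathepsin typical of macrophages and other antigen-presenting cells, had the widest difference of the cathepsins. It read 10.54, 9.41 and 9.56 in Ghrh-KO livers, against 9.73, 8.11 and 8.09 in control livers. Ghrh-KO replicate 4 was the highest array, and control replicate 1 lay within the Ghrh-KO range. The difference of 1.19, or 2.29-fold (SE 0.50, unadjusted p = 0.0461, adjusted p = 0.268), was not called. The mean of the 16 macrophage markers was 8.72, 7.46 and 8.08 in the same Ghrh-KO arrays and 8.69, 7.54 and 7.40 in the controls, with 13 markers of higher mean in Ghrh-KO and 3 of lower mean. None of the 16 was called. Cd68 alone had an unadjusted p below 0.05, with a difference of 1.19 (adjusted p = 0.154 from limma) and no overlap of the groups. Marco had the widest difference the other way, -1.26 (adjusted p = 0.380). The part of macrophages in the values of Ctss was not tested. Without control replicate 1 the difference of Ctss was 1.74 (adjusted p = 0.0994), and without Ghrh-KO replicate 4 it was 0.84 (adjusted p = 0.409).

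Of the glycosidases, HEXA is the alpha subunit of hexosaminidase A, which degrades gangliosides, and NEU1 removes sialic acid. Hexa read 10.52, 10.86 and 10.83 in Ghrh-KO livers, against 10.24, 9.79 and 10.10 in control livers. The groups did not overlap, with control replicate 1 nearest to the Ghrh-KO arrays. The difference of 0.70, or 1.62-fold (SE 0.16, unadjusted p = 0.00352), had an adjusted p of 0.0954 and was not called. With any 1 array left out it stayed between 0.57 and 0.80, with adjusted p from 0.112 to 0.257. Neu1 read 8.03, 8.12 and 7.99 in Ghrh-KO livers, against 8.48, 8.19 and 8.16 in control livers (difference -0.23, SE 0.13, adjusted p = 0.393), so that the glycosidases of the set pointed in opposite directions.

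The V-ATPase pumps protons into the lysosome. Its d subunit, part of the stalk between the membrane sector and the catalytic sector, comes in a ubiquitous form from Atp6v0d1 and a form of restricted expression from Atp6v0d2, known from osteoclasts, kidney and macrophages, and Atp6v1h encodes a regulatory subunit of the catalytic sector. Atp6v0d2 read 7.89, 8.53 and 8.17 in Ghrh-KO livers, against 5.64, 5.44 and 5.75 in control livers. The lowest Ghrh-KO array lay more than 2 above the highest control. It rose by 2.58 on the log2 scale (SE 0.18, adjusted p = 0.0014 from limma). With any 1 array left out it kept its call, with a difference of 2.42 to 2.74 and an adjusted p of at most 0.0115. A dimmer second probe set read 5.64, 5.70 and 6.00 in Ghrh-KO livers, against 3.95, 4.16 and 4.02 in control livers. Its control values lie under the lowest mean among the probe sets tested, 4.66, so it was tested only through its Ghrh-KO values, and its test is not used here. The macrophage markers averaged 8.72, 7.46 and 8.08 in the same Ghrh-KO arrays and 8.69, 7.54 and 7.40 in the controls, and their part in the values of Atp6v0d2 was not tested.

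Atp6v0d1 read 10.61, 10.78 and 10.61 in Ghrh-KO livers, against 10.63, 10.81 and 10.65 in control livers (difference -0.03, SE 0.12, adjusted p = 0.919 from limma, and -0.087 without Ghrh-KO replicate 5). Atp6v1h read 9.87, 10.25 and 9.95 in Ghrh-KO livers, against 9.84, 9.79 and 9.83 in control livers (difference 0.20, SE 0.13, adjusted p = 0.446), a difference that was 0.090 without Ghrh-KO replicate 5. Neither was called. Among the transcripts of the 3 subunits of the set, that of the restricted d subunit alone was called, and no test compared the subunits with each other. The arrays measure RNA and not the pump itself.

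**Figure D5:**
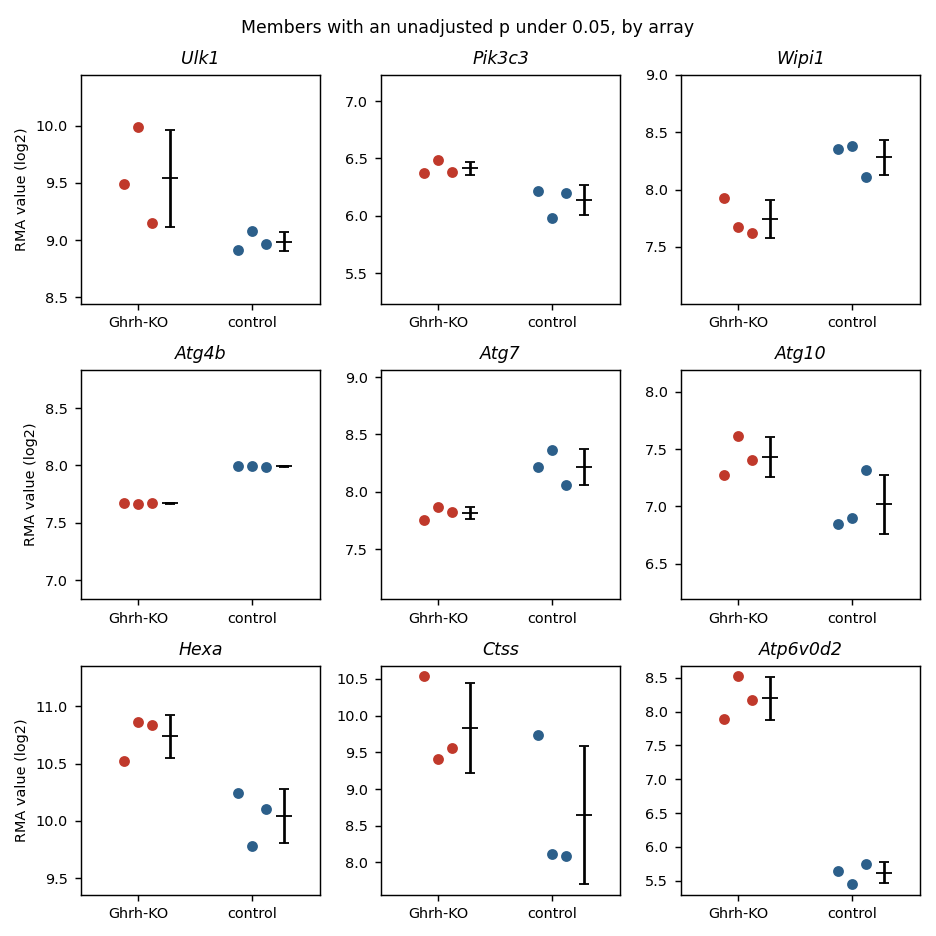
RMA values (log2, vertical axis; each panel spans at least 2 units) in 3 Ghrh-KO arrays (red, left) and 3 control arrays (blue, right) for the 9 genes with an unadjusted p below 0.05, with black marks for the group mean and SD. Atp6v0d2 shows the only wide gap; in Ctss and Atg10 the groups overlap, and the 2 groups of Atg4b are tight and 0.32 apart.

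Other genes of the pathway, from lists of the same steps, gave no call, where 1.76% of all genes tested were called. At an unadjusted p below 0.05, 9.17% of all genes tested had higher and 10.1% had lower means. Of 23 other autophagosome genes tested, an unadjusted p below 0.05 was reached by 2 with higher and 4 with lower means, with a list median of -0.10. Atg16l2, Atg2a and Wdr45, the last a further WIPI protein, were among the lower ones (-1.08, -0.32 and -0.30, adjusted p = 0.188, 0.205 and 0.270 from limma), and Atg4a, another ATG8 protease, among the higher (0.52, adjusted p = 0.209, and 0.34 without Ghrh-KO replicate 5). The probe set of Wdr45 carries a suffix for shared probes. Retreg1, a receptor for the autophagy of endoplasmic reticulum, read 11.35, 12.09 and 11.51 in Ghrh-KO livers, against 10.57, 10.77 and 11.12 in control livers (difference 0.83, SE 0.23, adjusted p = 0.136), the single one of 11 other cargo receptors at that level.

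Of 28 other lysosomal hydrolases, 3 lay higher and 2 lower at that level, beside 9.17% and 10.1% of all genes tested. Arsb, Gusb and Ids, which encode a sulfatase, a glucuronidase and a sulfatase, had differences of 0.63, 0.43 and 0.42 (adjusted p = 0.220, 0.243 and 0.166 from limma), and Dnase2a, a lysosomal DNase read by a probe set shared with other transcripts, had -0.997 (adjusted p = 0.175). The other lower one, Sgsh, a sulfatase gene named after its values were seen, had -0.35 (adjusted p = 0.187). Among 19 membrane proteins and cofactors, Gnptab, which makes the mannose 6-phosphate tag that routes hydrolases to lysosomes, read 6.82, 6.88 and 6.79 in Ghrh-KO livers, against 6.29, 5.84 and 6.36 in control livers (difference 0.67, SE 0.16, adjusted p = 0.0973). The sorting receptor gene Sort1 read 7.49, 6.85 and 7.17 in Ghrh-KO livers, against 7.86, 8.22 and 8.10 in control livers (difference -0.89, SE 0.19, adjusted p = 0.0756). Neither overlapped between genotypes, and neither was called. Laptm4b, a lysosomal membrane protein, differed by 0.38 (adjusted p = 0.187). Of 14 other V-ATPase subunits, Atp6v1b2 and Atp6ap1 were higher at that level (0.44 and 0.40, adjusted p = 0.164 and 0.143) and none was lower. The probe sets of Laptm4b and Atp6ap1 carry a suffix for shared probes.

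Regulators that act on or from the lysosome include the TOR complex, its GTPases and the partners of folliculin. Of 27 tested, 4 had higher and 4 had lower means at that level, beside 9.17% and 10.1% of all genes tested. Fnip1 and Fnip2, which encode the partners of folliculin, had differences of 0.77 and 0.76 (adjusted p = 0.195 and 0.161 from limma). The probe set of Fnip1 carries a suffix for shared probes. Ddit4, whose product restrains TOR, read 6.87, 6.23 and 6.79 in Ghrh-KO livers, against 7.63, 7.63 and 7.35 in control livers (difference -0.91, SE 0.19, adjusted p = 0.0794). Zkscan3, a zinc finger protein reported to repress autophagy genes, read 9.46, 9.44 and 9.26 in Ghrh-KO livers, against 8.63, 8.55 and 8.85 in control livers (difference 0.71, SE 0.13, adjusted p = 0.0521). It is read by a probe set that shares probes with other transcripts, and its difference was 0.47 once probe sets of that kind were left out (adjusted p = 0.399).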

How the data were processed

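The authors hybridized liver RNA to Affymetrix mouse genome arrays and deposited RMA values on the log2 scale (background-corrected, quantile-normalized; version not given in the sources used here) for 45101 probe sets. Their detection filter cannot be repeated from these values. Of the rest after removal of 64 controls, the 25000 with the highest mean were tested, of which 21271 had 1 gene, giving 12410 genes. The annotation gave 34958 probe sets 1 gene, 932 several and 9211 none; 34754 matched the reference gene table (GRCm38.p6).

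The difference of Ghrh-KO from control came from limma 3.58.1 (lmFit and eBayes, R 4.3.3), with Benjamini-Hochberg adjustment over all probe sets tested. The test was also run on simulated data. The differences added there were wider than those of most genes described here, so that check does not reach small differences. With 3 arrays per genotype, an exact permutation test cannot go below p = 0.1, and the number of arrays limits the precision. Members, lists and tests were chosen with earlier results of these data known. Values of all 6 arrays are given for called members, those with an unadjusted p below 0.05 and the widest of each role, and for others where useful, and up to 4 genes of each other list are named by size of difference at that level. Alternatives concerned the filter, normalization, probe set, variance model, call rule and arrays left out. Python 3.11.15 and matplotlib 3.10.9 made the figures.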

Additional observations from a re-analysis of the deposited data

How the results depend on the processing

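Calls among these genes kept their count in most of the alternatives tried. Atp6v0d2 was called in every one, with a difference of 2.33 to 2.74. The count of autophagosome genes called lower was 1 (Wipi1) in place of 0 when the probe set of lowest p stood for each gene, or without probe sets shared with other transcripts. The count of lysosome genes called higher was 2 (Atp6v0d2 and Hexa) in place of 1 with array quality weights or at an adjusted p below 0.10. The autophagosome median of -0.17 was -0.12 with arrays centred on their medians, -0.26 by the lowest p, -0.0825 with array weights and -0.0967 with both control replicate 2 and Ghrh-KO replicate 5 left out. With 1 array left out it ran from -0.194 to -0.0520. The lysosome median of 0.07 was 0.17 by the lowest p and ran from -0.00162 to 0.122 with 1 array left out. Array weights raised the calls over all genes tested to 250 higher and 290 lower, against 98 and 120, and with 1 array left out these ran from 36 to 93 higher and from 45 to 95 lower.

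Of 983 values of single genes under an alternative, 27 changed sign, all of them of genes that were not called, and the cause was not tested. Alternatives of the filter, the call rule and the intensity trend of the variance model keep each difference by design. Their values are among the 983 and could not change sign. By the lowest p, Atg5 was -0.27 and Nbr1 -0.96. With those 2 arrays left out, Atg5 was -0.032, Atg12 -0.036, Bnip3 -0.085, Lamp2 -0.062, Ctsa 0.030 and Ctsd 0.041. With array weights, Gabarapl1 was 0.023, Lamp2 -0.035 and Ctsd 0.027. With a second quantile normalization Gabarapl2 was 0.012, and with centred arrays Gabarapl2 was 0.046, Ctsd 0.040 and Atp6v0d1 0.018. With 1 array left out, Gabarapl1 ran from -0.53 to 0.025, Gabarapl2 from -0.096 to 0.098, Nbr1 from -0.023 to 0.049, Lamp2 from -0.031 to 0.070, Ctsa from -0.36 to 0.066, Ctsd from -0.076 to 0.087, Ctsh from -0.049 to 0.19 and Atp6v0d1 from -0.087 to 0.027. Zkscan3 was called with the other filters, the other normalizations and array weights, at adjusted p from 0.0344 to 0.0488 from limma. Sort1 and Ddit4 were called at adjusted p below 0.05 with array weights only (0.0267 and 0.0358). Gnptab was called only when the limit was moved to an adjusted p below 0.10, with its value unchanged (0.0973). The labels name no litter, and the groups share no replicate numbers (1 to 3 and 4 to 6), so no paired analysis was made. An effect of litter was not tested.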
